A study of Mus musculus with 6 samples.

Results

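The long noncoding RNAs Neat1, Malat1, Gas5, Snhg1, Snhg12, H19, Meg3 and Kcnq1ot1 were followed in the livers of Lmln-/- mice (Lmln-KO) and wild-type (WT) mice. They were chosen by name from the deposited table of read counts per gene name, and all 8 were found among its 55367 names. Whole liver from C57BL/6J mice was sequenced after ribosomal RNA depletion, with 3 libraries of each genotype, and no treatment is named in the labels. Lmln encodes invadolysin, a metalloprotease known from lipid droplets. Every animal was 46 weeks old except that of Lmln-KO replicate 3, which was 39 weeks old. The labels give neither the sex of the animals nor how the allele was made, and they do not say whether each library came from its own animal.

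Malat1 and Neat1 are retained in the nucleus. Malat1 gathers at nuclear speckles, where splicing factors are stored, and Neat1 is the RNA scaffold of paraspeckles, bodies that hold proteins such as SFPQ and NONO. Gas5, Snhg1 and Snhg12 are host genes: small nucleolar RNAs (snoRNAs), which guide the chemical modification of ribosomal RNA, are cut from their introns, and the spliced host RNA is short-lived. H19, Meg3 and Kcnq1ot1 are imprinted and are transcribed from the maternal allele (H19, Meg3) or the paternal one (Kcnq1ot1). H19 and Meg3 are known as fetal transcripts that are shut down in liver after birth, and Kcnq1ot1 silences neighbouring genes in cis.

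Host genes of snoRNAs are known for transcripts that begin with a run of pyrimidines, the terminal oligopyrimidine start also found in ribosomal protein mRNAs. The bases around the annotated start are shown to set the hosts beside the other members. Each window runs from 30 bases before the start to 30 bases from the start onward in the RefSeq promoter table (GRCm38.p6), which held entries for 6 of the 8 members. Capitals mark the longest run of C and T that begins within 10 bases of the start. Gas5 and Meg3 have 2 entries each, and the downstream one of Gas5 and the upstream one of Meg3, each with the longer run, are shown; the others had runs of 3 and 2 bases.
Gas5: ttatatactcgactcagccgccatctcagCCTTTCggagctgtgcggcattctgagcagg
Snhg1: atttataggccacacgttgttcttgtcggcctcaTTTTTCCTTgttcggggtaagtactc
Snhg12: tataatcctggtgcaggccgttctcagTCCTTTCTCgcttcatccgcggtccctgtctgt
Malat1: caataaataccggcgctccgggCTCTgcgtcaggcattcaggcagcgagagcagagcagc
Meg3: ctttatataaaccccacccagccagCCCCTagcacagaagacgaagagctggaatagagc
Kcnq1ot1: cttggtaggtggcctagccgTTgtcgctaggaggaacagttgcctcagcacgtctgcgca

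The windows lie at chr1:161035136-161035195 on the plus strand for Gas5, chr19:8723457-8723516 plus for Snhg1, chr4:132308648-132308707 plus for Snhg12, chr19:5802643-5802702 minus for Malat1, chr12:109540966-109541025 plus for Meg3 and chr7:143296518-143296577 minus for Kcnq1ot1. The run was 9 bases in Snhg12 and in Snhg1 and 6 bases in Gas5, against 5 in Meg3, 4 in Malat1 and 2 in Kcnq1ot1. Of all 32851 entries 25.3% held a run of at least 6 bases and 6.87% one of at least 9. The motif TATAAA, sought on the printed strand over the whole promoter entry, was found in the promoter of Meg3 alone among the 6 shown, and in 8.32% of all entries. These are letters in a window, not measured start sites.

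Read counts summed to between 17388360 and 22494696 per library, and all 3 Lmln-KO libraries were deeper than every WT library. The disrupted gene itself, Lmln, was counted 4, 12 and 2 times in the Lmln-KO libraries, against 79, 80 and 39 times in the WT libraries (log2 fold change -3.72, adjusted p 0.933 in edgeR and 5.34e-06 in DESeq2). Sex-chromosome transcripts also divided the libraries. Xist, which coats the inactive X chromosome, had 45657 counts in Lmln-KO replicate 3 and 35222 and 32612 in WT replicates 2 and 3, and at most 19 in the others. Those others, Lmln-KO replicates 1 and 2 and WT replicate 1, had 3875 to 4974 counts over 4 Y-linked genes, against at most 3 where Xist was high. Each genotype is thus represented by a single library in one of these sets, and in the Xist set the Lmln-KO library is also the one from the younger animal. Of 8 hepatocyte markers, 7 were in the table and all 7 were tested, with Alb, the albumin gene, at 26082 CPM per kb of exon on average (CPM are counts scaled for library size). Alb stood at 45715 to 60834 CPM in the Lmln-KO libraries, against 62501 to 74329 CPM in the WT libraries, at an edgeR adjusted p of 0.933. These ranges did not overlap, which held for 10.3% of all genes tested. The hepatocyte markers together summed to 66146 to 75950 CPM in the Lmln-KO libraries, against 77770 to 96254 CPM in the WT libraries. Alb made up most of this sum in every library. Taken singly, 5 of the 7 markers were lower in Lmln-KO and 2 were higher, Fgb (log2 fold change 0.23) and Serpina1c (0.18). The middle value of the 7 was -0.0835. The part of the hepatocyte markers in the members' levels was not tested. In bulk liver, fewer cells of a type and less RNA per cell cannot be told apart. Levels are CPM after TMM scaling, which evens out differences in library composition.

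No member was called different between the genotypes. With edgeR's quasi-likelihood test and Benjamini-Hochberg adjustment over 18703 genes, 0 of the 7 members with enough counts were called, against a background of 0 genes called (0%). An unadjusted p under 0.05 was found for 0 members and for 871 genes (4.66%), and with a term for the Xist and Y-linked sets for 0 members and 4.34% of genes. DESeq2 called 22 genes (0.0785% of those it adjusted), or 27 with that term (0.154%), and 0 members in either fit. The groups overlapped for each of the 8 members, while 10.3% of tested genes showed no overlap, 4.61% with every Lmln-KO library above every WT library. The log2 fold change was positive for 4 of the 7 tested members and negative for 3. Its median was 0.031 over these members and -0.0038 over all genes tested.

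**Figure D1:**
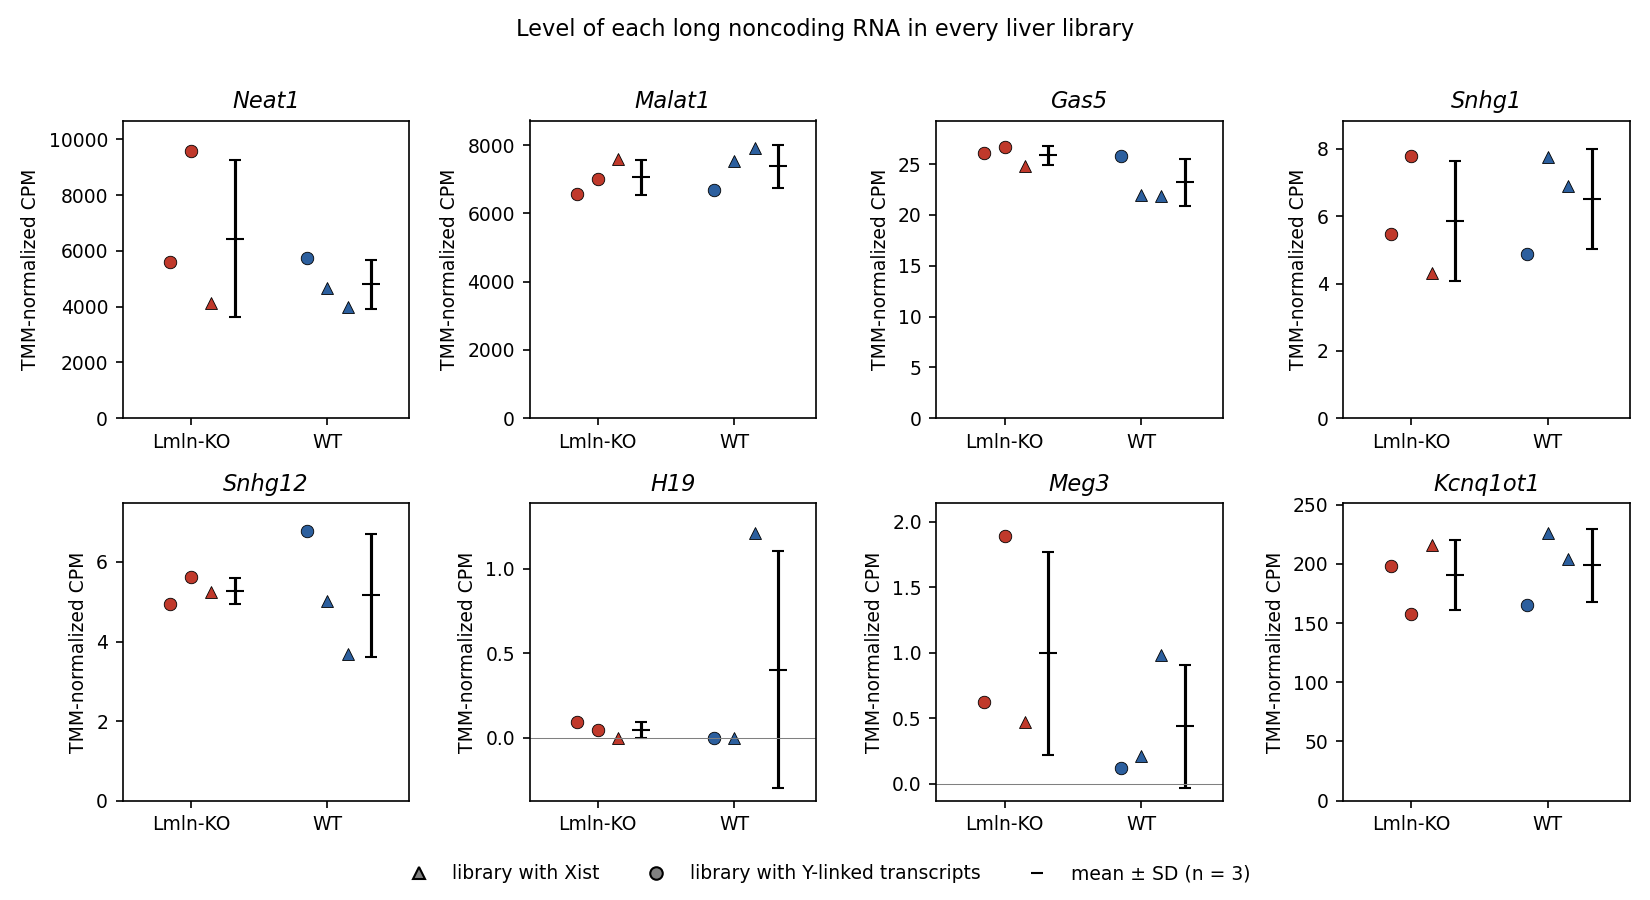
TMM-normalized CPM (vertical axes, from 0 or below it where an error bar crosses 0) of each RNA in 3 Lmln-KO and 3 WT libraries; triangles are libraries with Xist, circles those with Y-linked transcripts, and bars are the mean ± SD. The groups overlap in every panel; Neat1 is highest in Lmln-KO replicate 2 (9591 CPM) and H19 in WT replicate 3 (1.21 CPM).

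Set against exon length, the members differed widely, and Malat1 and Neat1 alone stood near the top of the genes tested. Malat1 averaged 1034 CPM per kb over the 6 libraries, which placed it at rank 42 when set among the tested genes, and Neat1 averaged 271 CPM per kb, at rank 154. Their ranges, 943 to 1133 and 193 to 462 CPM per kb, did not overlap. Gas5 followed with a mean of 6.52 and a range of 5.80 to 7.10 CPM per kb, above the median of 2.69 for genes tested.

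Snhg12, Kcnq1ot1 and Snhg1 averaged 2.17, 2.09 and 2.08 CPM per kb, and their ranges overlapped, so their order is not resolved. Snhg1 and Snhg12 are each counted as 1 exon block over their whole span (2969 and 2402 bases), and Gas5 over 3760 of 4118 bases. Introns of the spliced hosts thus enter both length and counts, and these levels are not those of spliced RNA alone. Kcnq1ot1 had 2789 to 5067 counts per library, more than Gas5 in each, but it is measured over 93092 bases. H19 and Meg3 stood at the bottom with 0.0916 and 0.0396 CPM per kb, overlapping ranges, and lower levels than all but 0.797% and 0.0855% of tested genes.

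**Figure D2:**
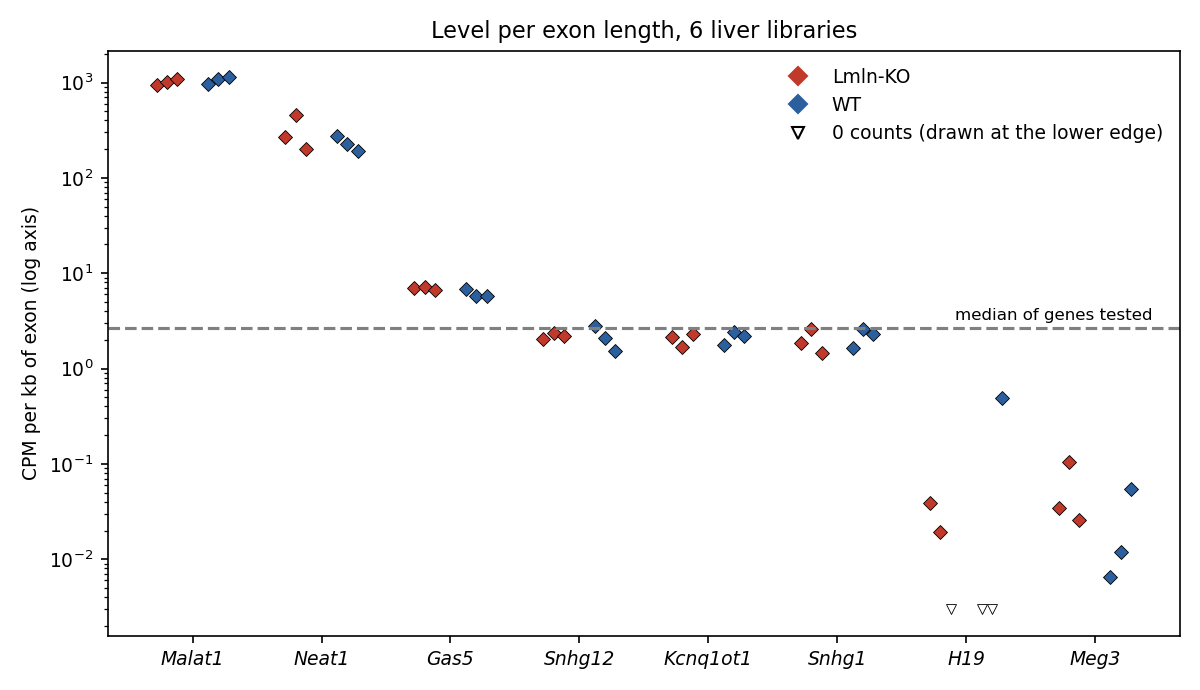
CPM per kb of exon (log axis) for each RNA, with Lmln-KO libraries left of WT libraries; open triangles at the lower edge stand for 0 counts, and the dashed line is the median of genes tested (2.69). Malat1 and Neat1 stand far above the line, Snhg12, Kcnq1ot1 and Snhg1 lie close to it, and H19 and Meg3 lie below it in every library.

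Neat1 (chromosome 19, 5824708 to 5845478, minus strand, GRCm38) is counted as 1 exon block of 20771 bases. The short and long Neat1 transcripts share their first part and are not told apart by these counts. It measured 5605, 9591 and 4132 CPM in Lmln-KO replicates 1, 2 and 3, against 5739.9, 4674.5 and 4000.4 CPM in WT replicates 1, 2 and 3. Lmln-KO replicate 2 stood alone at the top, and the other 2 Lmln-KO libraries lay within the WT range.

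Neat1 averaged 6443 ± 2824 CPM over the Lmln-KO libraries, against 4805 ± 877 CPM over the WT libraries (SD, n = 3 each). The log2 fold change was 0.42 (SE 0.313, 95% interval -0.30 to 1.15), with an edgeR adjusted p of 0.933. Leaving out Lmln-KO replicate 2 brought it to 0.020, leaving out Lmln-KO replicate 3 to 0.67, and the term for the sets to 0.17. In Lmln-KO replicate 2 the 6 erythrocyte markers, all with counts, summed to 275 CPM, the highest of the 6 libraries (80.9 to 228 CPM in WT). The 13 mitochondrial mRNAs summed to 24663 CPM there (16669 to 24413 CPM in WT). Both WT maxima were those of WT replicate 1, where Neat1 measured 5740 CPM. Alas2, an erythrocyte marker, had 1654 to 2645 counts in libraries with Y-linked transcripts and 256 to 265 in those with Xist. The part of these markers in the Neat1 level was not tested.

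Malat1 (chromosome 19, 5795690 to 5802672, minus strand) lies next to Neat1 and is likewise 1 block, of 6983 bases. It measured 6582, 7012 and 7596 CPM in Lmln-KO libraries and 6689, 7536 and 7913 CPM in WT libraries. The groups overlapped over most of their range, and Malat1 was among the steadiest members, with a coefficient of variation of 7.46% over the 6 libraries against 36.9% for Neat1. Its log2 fold change was -0.063 (SE 0.164, 95% interval -0.44 to 0.32, edgeR adjusted p 0.969), and -0.00054 with the term for the sets.

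The ratio of Neat1 to Malat1 counts, which needs no scaling, was 0.852, 1.37 and 0.544 in Lmln-KO replicates 1, 2 and 3, against 0.858, 0.620 and 0.506 in WT replicates 1, 2 and 3. Lmln-KO replicate 2 was the library in which Neat1 counts exceeded those of Malat1.

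Among the snoRNA hosts, Gas5 (chromosome 1, 161034422 to 161038539, plus strand) had the smallest relative spread within Lmln-KO. It measured 26.1, 26.7 and 24.8 CPM in Lmln-KO libraries and 25.8, 21.9 and 21.8 CPM in WT libraries. WT replicate 1 lay among the Lmln-KO values, so the groups overlapped, while WT replicates 2 and 3 were below every Lmln-KO library. Gas5 averaged 25.9 ± 0.957 CPM over the Lmln-KO libraries, against 23.2 ± 2.28 CPM over the WT libraries (SD, n = 3 each), a log2 fold change of 0.16 (SE 0.107, 95% interval -0.090 to 0.40, edgeR adjusted p 0.933). The fold stayed positive in all 17 alternatives to the fit by genotype alone, between 0.11 and 0.24, and passed the test in none. With the term for the sets and each library left out, it ran from 0.035 to 0.18.

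Snhg1 (chromosome 19, 8723475 to 8726443, plus strand) measured 5.48, 7.79 and 4.31 CPM in Lmln-KO libraries and 4.87, 7.76 and 6.91 CPM in WT libraries. Lmln-KO held both the highest and the lowest value. Its log2 fold change was -0.15 (SE 0.266, 95% interval -0.77 to 0.46, edgeR adjusted p 0.952), and 0.033 without Lmln-KO replicate 3.

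The Snhg1 values pointed opposite ways in the 2 sets. Where Y-linked transcripts were present, both Lmln-KO libraries were above WT replicate 1, a difference of 0.42 on the log2 scale; where Xist was high, Lmln-KO replicate 3 was below both WT libraries, a difference of -0.75. An interaction of genotype with set (Y-linked less Xist), added after the data were examined, was 1.21 on the log2 scale for Snhg1 and 3.66 for Meg3. Lmln-KO replicate 3 and WT replicate 1 each stand alone for their genotype in a set. The interaction therefore cannot tell this pattern from differences between single libraries, and no conclusion is drawn from it.

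Snhg12 (chromosome 4, 132308623 to 132311024, plus strand) measured 4.95, 5.62 and 5.24 CPM in Lmln-KO libraries and 6.77, 5.03 and 3.69 CPM in WT libraries. The Lmln-KO libraries lay close together inside the wider WT range. Its log2 fold change was 0.031 (SE 0.236, 95% interval -0.51 to 0.57, edgeR adjusted p 0.991). It changed sign with the term for the sets (-0.049), when Lmln-KO replicate 2 was left out (-0.017) and when WT replicate 3 was (-0.16). Its within-set differences were -0.35 where Y-linked transcripts were present and 0.28 where Xist was high, and the interaction was -0.62 on the log2 scale.

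The snoRNAs themselves were not measured. Separate snoRNA rows fell within Gas5 (8), Snhg1 (8) and Snhg12 (4), and all 20 lay wholly inside bases also annotated as host exon. These 20 rows held 0 counts in the 6 libraries together. The same held for all 36 rows of any type that lay wholly inside a member's exons, among them the microRNA rows Mir675 in H19 and Mir770 and Mir1906-1 in Meg3. The command line in the file header sets no option to count reads that overlap several genes. Of the host exon bases 17.8% in Gas5, 20.9% in Snhg1 and 19.6% in Snhg12 were shared in this way.

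Of the imprinted members, Kcnq1ot1 (chromosome 7, 143203458 to 143296549, minus strand) was the one with a sizeable count. It measured 198, 158 and 216 CPM in Lmln-KO libraries and 166, 226 and 204 CPM in WT libraries, with the lowest value in Lmln-KO replicate 2 and the highest in WT replicate 2. Its log2 fold change was -0.060 (SE 0.164, 95% interval -0.44 to 0.32, edgeR adjusted p 0.970). It changed sign with the term for the sets (0.054), when Lmln-KO replicate 2 was left out (0.060) and when WT replicate 2 was (0.041).

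Kcnq1, the potassium channel gene in whose intron Kcnq1ot1 begins, had 39, 24 and 68 counts in Lmln-KO libraries and 18, 48 and 39 in WT libraries. The 2 genes share 121 exon bases on opposite strands, and counting took no account of strand, so Kcnq1 pre-mRNA could not be told from Kcnq1ot1 across that locus. Cdkn1c, a cell cycle inhibitor silenced in cis by Kcnq1ot1, had 11, 6 and 39 counts in Lmln-KO libraries and 14, 19 and 24 in WT libraries, a log2 fold change of -0.37 with an unadjusted edgeR p of 0.565.

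H19 (chromosome 7, 142575529 to 142578143, minus strand) was close to silent. Its counts were 2, 1 and 0 in the Lmln-KO libraries, against 0, 0 and 21 in the WT libraries. The 21 counts of WT replicate 3, or 1.21 CPM, stood apart from the other 5 libraries. For the libraries at 0, a limit of 3 counts, which covers counting error only, corresponds to 0.128 CPM in Lmln-KO replicate 3, and to 0.178 and 0.160 CPM in WT replicates 1 and 2. H19 did not pass the filter on low counts and was not tested in the fit; without the filter its unadjusted edgeR p was 0.147. Igf2, the growth factor gene that shares its enhancers, had 1, 0 and 0 counts in Lmln-KO libraries and 0, 2 and 2 in WT libraries.

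Meg3 (chromosome 12, 109541001 to 109571726, plus strand) had 13, 40 and 11 counts in Lmln-KO libraries and 2, 4 and 17 counts in WT libraries. In CPM these were 0.625, 1.89 and 0.469 in Lmln-KO, against 0.119, 0.214 and 0.979 in WT. Lmln-KO replicate 2 was highest, and WT replicate 3 lay above the other 2 Lmln-KO libraries.

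The log2 fold change of Meg3 was 1.17 with a wide error (SE 0.832, 95% interval -0.77 to 3.11, edgeR adjusted p 0.933). Leaving out Lmln-KO replicate 2 brought it to 0.32, and leaving out WT replicate 3 to 2.52. Rian, the snoRNA-bearing transcript downstream of Meg3, had 15, 29 and 10 counts in Lmln-KO libraries and 15, 11 and 14 in WT libraries. Mirg, the microRNA host further downstream, had 3, 4 and 4 counts in Lmln-KO libraries and 0 in each WT library, too few to be tested. Dlk1, the paternally expressed partner of Meg3, had 0 counts in each Lmln-KO library and 0, 2 and 0 in the WT libraries. The summed levels of endothelial and of stellate cell markers overlapped between the genotypes. The 9 endothelial markers summed to 486 to 594 CPM in the Lmln-KO libraries, against 532 to 546 CPM in the WT libraries, and the 10 stellate cell and fibroblast markers to 371 to 511 CPM, against 455 to 546 CPM in WT. Taken singly, 6 endothelial and 7 stellate cell and fibroblast markers had a negative log2 fold change, and 3 of each list a positive one. An unadjusted edgeR p under 0.05 was found for 0 and 2 of them, both lower in Lmln-KO, against 4.66% of all genes tested. Their part in the Meg3 level was not tested.

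**Figure D3:**
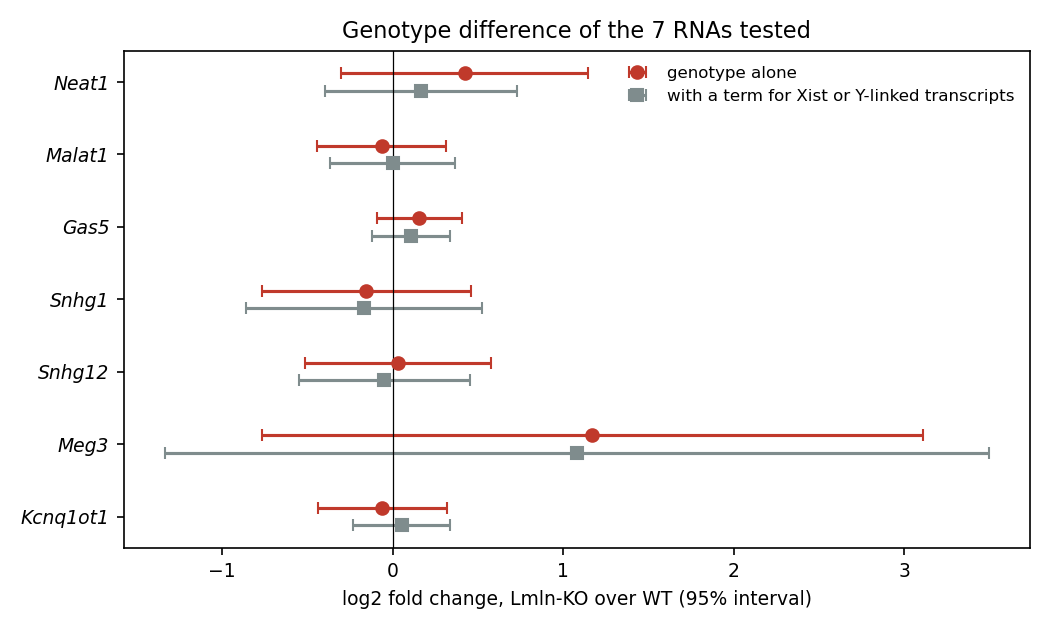
Log2 fold change of Lmln-KO over WT (horizontal axis) with its 95% interval for the 7 RNAs tested, from the fit by genotype alone (red circles) and with a term for Xist or Y-linked transcripts (grey squares). Every interval includes 0, and those of Meg3 are the widest (-0.77 to 3.11 by genotype alone).

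For 4 members the libraries parted without overlap by their sex-chromosome transcripts, and for 0 members by genotype. The 3 libraries with Xist had the 3 highest levels of Malat1, 7536 to 7913 CPM, against 6582 to 7012 CPM in the 3 libraries with Y-linked transcripts. They also had the 3 highest levels of Kcnq1ot1, 204 to 226 against 158 to 198 CPM. The order was turned round for Neat1, with 4000.4 to 4674.5 CPM where Xist was high and 5605 to 9591 CPM where Y-linked transcripts were present. The same was seen for Gas5, with 21.8 to 24.8 against 25.8 to 26.7 CPM.

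The sets thus did not overlap for 4 of the 7 tested members, and they did not overlap for 26.3% of all genes tested. This split was read from the libraries themselves and is given without a test. Snhg1, Snhg12, Meg3 and H19 overlapped between the sets. Lmln-KO holds 2 libraries with Y-linked transcripts and WT holds 1, so a difference between the sets enters each comparison by genotype alone.

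In the Y-linked set, the mean log2 level of Lmln-KO replicates 1 and 2 less that of WT replicate 1 was 0.35 for Neat1, 0.022 for Malat1, 0.030 for Gas5, 0.093 for Kcnq1ot1 and 2.45 for Meg3. In the Xist set, Lmln-KO replicate 3 less the mean of WT replicates 2 and 3 gave -0.066 for Neat1, -0.024 for Malat1, 0.18 for Gas5, 0.0078 for Kcnq1ot1 and -0.033 for Meg3. With the term for the sets, 1 of all genes tested was called (0.00535%) and 0 members.

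**Figure D4:**
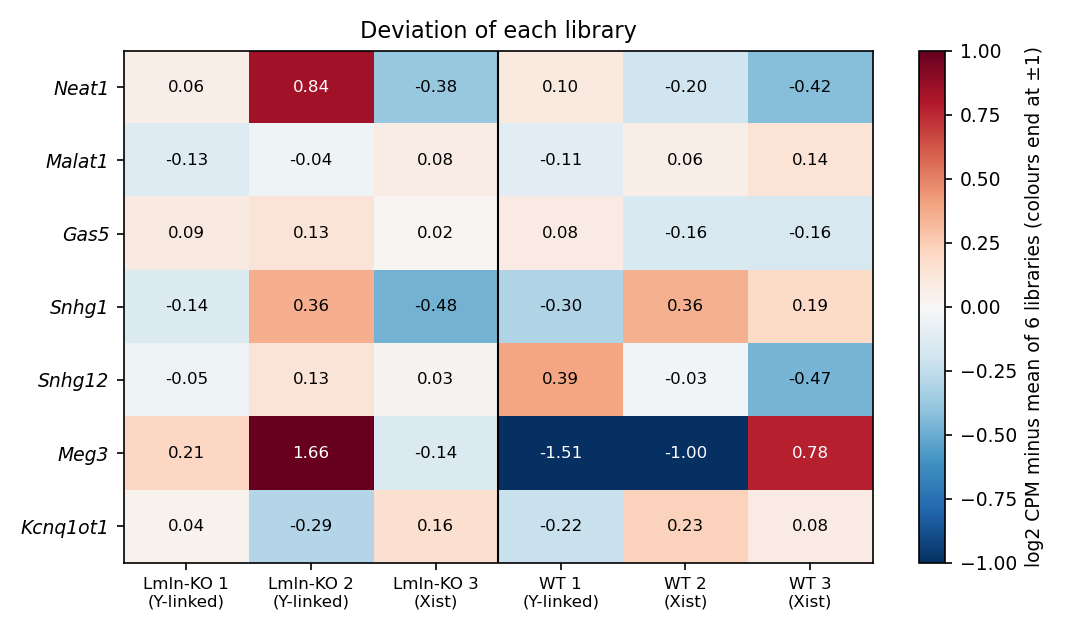
Log2 CPM of each library minus the mean of the 6 libraries (colour and number), for the 7 RNAs tested, with Lmln-KO libraries left of the line and WT libraries right of it. Neat1 (0.84) and Meg3 (1.66) are highest in Lmln-KO replicate 2, and Malat1 is above its mean in the 3 libraries with Xist and below it in the other 3.

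The genes most like each member over the 6 libraries were found by Pearson's r of log2 CPM, which with so few points is high for many genes. For Neat1 they were Akr1c19 (r = 0.996) and Akr1c13 (r = 0.994), of an aldo-keto reductase family whose members can share reads, and 232 of 11586 genes had an r over 0.9. Akr1c19 measured 71.3, 120 and 51.7 CPM in Lmln-KO libraries and 67.2, 58.8 and 49.2 CPM in WT libraries, with the same library at the top as Neat1. For Malat1 they were Pheta1 (0.997) and Sesn3 (0.995), for Gas5 Ythdc2 (0.998) and Eif4h (0.995), for Snhg1 Tnrc6b (0.985) and Bsdc1 (0.976), and for Snhg12 Exoc6 (0.997) and Slc16a4 (0.994). For Meg3 they were Dguok (0.970) and Setd5 (0.969), and for Kcnq1ot1 Pitpnm2os2 (0.998) and Ifit1 (0.995). Between members r ran from -0.83 (Neat1 and Kcnq1ot1) to 0.71 (Neat1 and Gas5), all over the same 6 libraries.

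Genes that work with the members were taken as lists. Of the 19 genes tested for nonsense-mediated decay 2 had an unadjusted edgeR p under 0.05. So had 2 of 12 in the H19 and Kcnq1ot1 domains, 2 of 21 further noncoding RNAs and 0 in the other lists of this kind, cell type markers aside. Over all genes tested the share was 4.66%. DESeq2 called 1 gene of these lists, Lsp1, and 0.0785% of all the genes it adjusted. Of the 22 paraspeckle proteins tested 0 were called, 14 had a positive and 8 a negative log2 fold change, and their median was 0.029. Cpsf6 (log2 fold change 0.21) and Fam98a (log2 fold change 0.17) were among those with the smallest p values. Of the 22 nuclear speckle and splicing factors 0 were called, with 10 positive, 12 negative and a median of -0.030, led by Clk1 (-0.21), Srsf7 (-0.16) and Rbm25 (0.15). With the term for the sets 11 paraspeckle proteins were positive and 11 negative, and 10 speckle and splicing factors were positive and 12 negative.

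Among other snoRNA host genes 15 of 20 were tested and 0 called, with 11 positive, 4 negative and a median of 0.037. Snhg18 (log2 fold change 0.87), Snhg4 (-0.37) and Epb41l4aos (-0.22) had the smallest p values. With the term for the sets 8 of these 15 host genes were positive and 7 negative. The 15 snoRNP proteins, which bind the released snoRNAs, had 0 calls and a median of 0.036, led by Nop56 (0.35), Nhp2 (0.28) and Nop58 (-0.13).

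Nonsense-mediated decay degrades spliced snoRNA host RNAs such as that of Gas5. Of its 19 factors, mRNA decapping proteins included, 0 were called, 13 were positive and 6 negative, and the median was 0.053. With the term for the sets 12 were positive and 7 negative. Dcp2, the decapping enzyme, averaged 40.8 ± 4.07 CPM over the Lmln-KO libraries, against 31.9 ± 1.29 CPM over the WT libraries, with an unadjusted edgeR p of 0.00969 and an adjusted p of 0.933. Smg5, a decay factor, averaged 44.9 ± 0.915 CPM over the Lmln-KO libraries, against 36.9 ± 2.37 CPM over the WT libraries (SD, n = 3 each), with an unadjusted edgeR p of 0.0163 and the same adjusted p. The third was Pnrc2 (log2 fold change 0.19).

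In the list for the H19 and Kcnq1ot1 domains 12 of 19 genes were tested and 0 called by edgeR, with a median of -0.097. Lsp1, a leukocyte gene near H19, had a log2 fold change of -1.52 and was called by DESeq2 (adjusted p 0.0251), though not with the term for the sets (adjusted p 0.0811). It averaged 1.596 ± 0.257 CPM over the Lmln-KO libraries, against 4.59 ± 1.22 CPM over the WT libraries (SD, n = 3 each). The 8 B and plasma cell markers, 6 of them tested and all 6 with a negative log2 fold change, summed to 20.8 to 38.6 CPM in the Lmln-KO libraries, against 38.8 to 402 CPM in the WT libraries. The 8 monocyte-derived macrophage markers, 7 of them tested and 5 with a negative log2 fold change, summed to 65.9 to 81.1 CPM in the Lmln-KO libraries, against 84.1 to 94.8 CPM in the WT libraries. All 8 Kupffer cell markers had a negative log2 fold change, with overlapping sums of 244 to 289.7 CPM in Lmln-KO and 269.96 to 355 CPM in WT. No marker of these 3 lists was called by edgeR, which by genotype alone called 0 of all genes tested. An unadjusted edgeR p under 0.05 was found for 6 B and plasma cell, 3 monocyte-derived macrophage and 1 Kupffer cell markers. All of these were lower in Lmln-KO, and the share over all genes tested was 4.66%. With the term for the sets the numbers were 2, 3 and 2. The part of these markers in the Lsp1 level was not tested. Tspan32 (-1.51) and Osbpl5 (-0.42) followed.

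Of 9 genes of the Meg3 domain 4 were tested and 0 called, with a median of -0.016, led by Wars (0.31), Dio3os (-1.39) and Wdr25 (-0.17). Of 27 other imprinted genes 20 were tested and 0 called, with a median of -0.013, led by Peg13 (-0.27), Grb10 (0.54) and Dcn (-0.30). Of 14 fetal liver genes and their repressors 8 were tested and 0 called, with a median of -0.24, led by Afp (0.58), Lpl (-0.71) and Gpc3 (-1.001). With the term for the sets these 3 medians were -0.17, -0.037 and -0.022.

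Of 35 further noncoding RNAs 21 were tested and 0 called, with 8 positive, 13 negative and a median of -0.14. With the term for the sets 6 were positive and 15 negative. Lncpint, a p53-regulated long noncoding RNA, averaged 70.2 ± 17.9 CPM over the Lmln-KO libraries, against 124 ± 28.97 CPM over the WT libraries (SD, n = 3 each), a log2 fold change of -0.82 with an unadjusted edgeR p of 0.00713 and an adjusted p of 0.933. Its groups did not overlap, which held for 10.3% of all genes tested. Carmn (log2 fold change -0.49) and Dnm3os (-0.53) had the next smallest p values.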

How the data were processed

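Per the file headers, the authors assigned reads to exons by gene name with featureCounts 2.0.1, using Ensembl release 102 (GRCm38). The deposited values are whole-number counts, not normalized, and the header's command line sets no paired-end, strand or overlap option. The submitters' processing notes also name Subread 2.0.2 and edgeR 3.36.0. No aligner is named in the sources used here. Libraries were matched to columns by the names in the titles. All 15 pairs of libraries differed beyond sampling noise (the lowest chi-square divided by its degrees of freedom was 12.2).

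The test was edgeR 4.0.16 (R 4.3.3) with TMM scaling, the filterByExpr filter at a minimum count of 10 (18703 genes) and a quasi-likelihood fit, robust, by genotype. Its p-values were adjusted over all genes by Benjamini-Hochberg and called under 0.05. SE is the size of the log2 fold change over the root of its F. Exon lengths are those of the deposited table; CPM per kb divides CPM by them. Log2 levels for within-set differences used a prior count of 2. P-values measure the spread between these libraries; intervals on counts cover counting error only. Reads of a pair were counted singly, so they are not independent molecules.

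Alternatives were other scalings and filters, DESeq2 1.42.0, limma-voom (limma 3.58.1), a fit without robust estimation, mitochondrial genes left out, the replicate number as a block, a term for the library set (Xist above or below 4 Y-linked genes) and each library left out. The fits were checked on simulated data that held no difference between the Xist and Y-linked sets, so the check does not cover that difference. The members, lists and the term were chosen with earlier results of these data known. Lmln, Xist and a few cell type markers are named. The other genes named are the members, the 3 smallest p of each list, the 2 most alike genes (average log2 CPM of at least 1, no predicted gene) and genes beside or overlapping members. A gene that this rule takes is not reported here. GENCODE M21 (GRCm38) gave the type of overlapping rows.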

Additional observations from a re-analysis of the deposited data

How the results depend on the processing

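No member was called under any alternative, so the changes below are of direction or size among results that did not pass. The count of genes called over the whole table, 0 in edgeR by genotype alone, was 22 with DESeq2, 3 without a filter on low counts, 1 with the sex-marker term, and 0 to 3 with each library left out (3 without WT replicate 1); 871 genes had an unadjusted p under 0.05. The fit with that term called 1 gene, and 0 to 4 when each library was left out (0 without Lmln-KO replicate 1, Lmln-KO replicate 2 or WT replicate 1, 2 without WT replicate 3 and 4 without WT replicate 2). The replicate number as a block gave 1 gene called and 0 members. Same-numbered Lmln-KO and WT libraries correlated at 0.465, -0.311 and 0.405 in their deviations from the group means, and Lmln-KO replicate 2 correlated best with WT replicate 1. These correlations ran from 0.405 to 0.49 within the Xist and Y-linked sets and were negative across them. They follow the sets, so they cannot show whether the numbers pair the libraries.

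Direction was kept by Neat1, Malat1 and Gas5 in all 17 alternatives to the fit by genotype alone, and by Meg3 in all 16 that could test it. The filter at 1 CPM in 3 libraries left Meg3 untested. Snhg12 (-0.049) and Kcnq1ot1 (0.054) changed sign with the sex-marker term. With each library left out the log2 fold change ran from -0.41 to 0.033 for Snhg1, from -0.16 to 0.28 for Snhg12 and from -0.17 to 0.060 for Kcnq1ot1. Where the term was fitted too, leaving out each library gave -0.069 to 0.41 for Neat1, -0.024 to 0.028 for Malat1 and 0.035 to 0.18 for Gas5. It gave -0.77 to 0.45 for Snhg1, -0.35 to 0.27 for Snhg12, -0.33 to 3.34 for Meg3 and -0.022 to 0.11 for Kcnq1ot1. The cause of these changes was not tested. Depth limits H19 and Meg3, with at most 21 and 40 counts in a library.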
